A study of Mus musculus with 16 samples.

Results

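Fetal, progenitor and biliary markers were followed in furan-exposed mouse liver as a panel of 10 genes: Afp, Prom1, Anxa2, Sox9, Krt19, Krt7, Epcam, Spp1, Cd24a and Msln. Their probes were found by matching the accession of each probe to a RefSeq gene symbol. The panel matched 11 of the 55681 probes on the array, Prom1 having 2 probes and every other gene 1. The array as a whole named 20660 genes through 27235 matched probes. Of the 11 probes, 7 were bright enough to test, 1 for each of Afp, Msln, Prom1, Anxa2, Spp1, Krt7 and Cd24a. The probes of Sox9, Krt19 and Epcam and the other Prom1 probe were not.

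The livers came from female mice of the hybrid strain B6C3F1, bought at an age of 5 to 6 weeks and rested for at least 7 days. Furan, which liver cytochrome P450 turns into a reactive aldehyde, was given by gavage for 21 days in a corn oil vehicle, at a dose of 8 mg per kg of body weight, and the animals' livers were collected 4 h after dosing ended. The 4 groups were furan livers kept 3 weeks in formalin, corn oil livers kept 3 weeks, furan livers kept 18 h and corn oil livers kept 18 h, with 4 arrays each. All were embedded in paraffin, and the RNA was degraded in every group, with RNA integrity numbers of 1.3 to 2.4. RNA came from 2 sections of 10 µm at 3 weeks and from 1 section at 18 h, so the number of sections and the time in formalin cannot be told apart. Cy5 marked the liver RNA of an array and Cy3 a pool of all samples, and all values below are log2 ratios of sample over pool unless said otherwise. The labels speak of 4 biological replicates in each dose group. They do not say whether samples of the same number at 18 h and 3 weeks came from the same liver. Results at the 2 times are therefore not taken as independent. Corn oil arrays 2.1 and 2.2 at 3 weeks share a sample number and were averaged, which left 15 samples and 3 corn oil samples at that time. Precision is limited by how few arrays there are, and p-values measure the spread between these samples.

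Alpha-fetoprotein, encoded by Afp, is the main plasma protein of the fetal liver and yolk sac, and its gene is silenced in hepatocytes soon after birth. Sox9, a transcription factor, and the cytokeratin genes Krt19 and Krt7 mark the epithelium of bile ducts, as does Epcam, an adhesion molecule. Spp1 encodes osteopontin, a secreted ligand of integrins and CD44 made by bile duct cells and by activated macrophages. Prom1 (CD133), a membrane protein, and Cd24a, a small anchored glycoprotein, are used to sort liver progenitor cells. Anxa2 encodes annexin A2, which binds membranes in response to calcium, and Msln encodes mesothelin, a surface protein of the mesothelium that covers the liver. In whole liver, fewer cells of a type and less RNA per cell cannot be told apart.

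Promoters are shown for the genes with a bright probe that differed between furan and corn oil livers fixed for 18 h and that had a promoter in the table, Spp1 excepted because its level was near background. RefSeq promoters of build GRCm38.p6, each from 250 bases before to 50 bases after the annotated start, were found for 6 of the 10 genes. The stretch shown for Afp is chr5:90490464-90490763 on the plus strand, that for Anxa2 is chr9:69453433-69453732 on the plus strand, and that for Prom1 is chr5:44101687-44101986 on the minus strand, the first of the 2 starts listed for that gene. Capitals mark the letters of the motifs found.
Afp: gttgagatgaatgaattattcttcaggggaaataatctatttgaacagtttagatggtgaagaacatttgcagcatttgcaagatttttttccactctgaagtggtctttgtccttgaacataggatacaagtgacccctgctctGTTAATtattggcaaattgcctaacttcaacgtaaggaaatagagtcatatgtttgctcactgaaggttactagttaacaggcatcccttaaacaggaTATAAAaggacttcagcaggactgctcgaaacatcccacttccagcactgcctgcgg
Anxa2: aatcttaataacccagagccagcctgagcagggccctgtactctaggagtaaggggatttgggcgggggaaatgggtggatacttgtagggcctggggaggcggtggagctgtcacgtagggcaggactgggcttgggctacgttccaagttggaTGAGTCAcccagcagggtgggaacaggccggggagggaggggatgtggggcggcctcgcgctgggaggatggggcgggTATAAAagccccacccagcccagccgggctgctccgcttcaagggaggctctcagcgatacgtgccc
Prom1: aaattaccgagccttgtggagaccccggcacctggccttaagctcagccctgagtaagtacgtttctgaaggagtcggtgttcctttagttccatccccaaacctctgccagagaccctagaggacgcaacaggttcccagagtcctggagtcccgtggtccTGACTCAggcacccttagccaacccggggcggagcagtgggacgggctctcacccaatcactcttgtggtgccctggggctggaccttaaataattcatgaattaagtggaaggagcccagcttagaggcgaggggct

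4 motifs were searched on both strands: the core of the HNF1 site (GTTAAT), the AP-1 site (TGANTCA), the TEAD site (GGAATG) and the TATA box (TATAAA). The Afp promoter held the HNF1 core at base -105 and the TATA letters at base -7 from the start, and the Anxa2 promoter held an AP-1 match at base -95 and the TATA letters at base -17. Prom1 held an AP-1 match at base -88. No TEAD letters were found in any of the windows of the 6 genes. Among 32851 promoters of the same length, 7.1% held the HNF1 core, 7.81% the AP-1 letters, 14.7% the TEAD letters and 13.6% the TATA letters. A match describes the letters only.

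Detection differed widely among the markers. In the sample channel Anxa2 and the brighter Prom1 probe exceeded background well on all 16 arrays, Afp and Cd24a on 15, Krt7 on 12, Msln on 10 and Spp1 on 6. The probes of Sox9 and Epcam each reached that level on 1 array of 16, and those of Krt19 and the other Prom1 probe on 0. From here on, above background means this level, and a lower signal can still exceed the local background. Msln was above background on 4 of 4 furan arrays and 1 of 4 corn oil arrays at both times in formalin. Spp1 at 18 h was above background on 2 of 4 furan arrays and 4 of 4 corn oil arrays, and at 3 weeks on 0 of 4 arrays of each group. Of the biliary genes, Sox9, Krt19, Epcam and Spp1 fell short of that level on most arrays, while Krt7 reached it on 12 of 16. The brightest probes belonged to Anxa2 and Prom1. Each tested gene rests on 1 tested probe, so no second probe checks it.

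**Figure D1:**
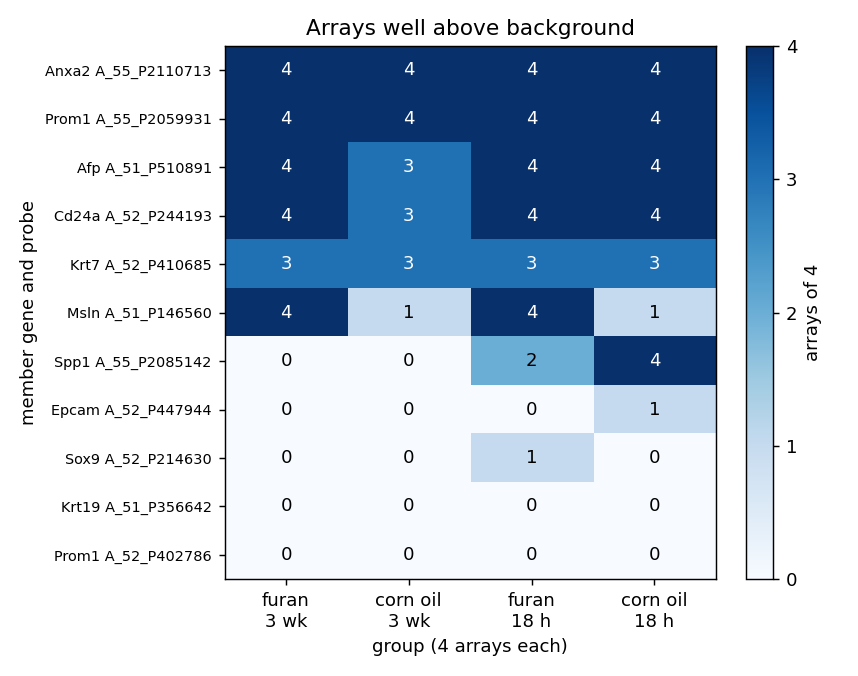
Number of arrays of 4, by group, on which the sample channel of each of the 11 probes exceeded background well; darker cells mean more arrays. Anxa2 and the brighter Prom1 probe were detected on all arrays, Msln mainly on furan arrays, Spp1 at 18 h alone, and Krt19 and the other Prom1 probe on no array.

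Array-wide signal also differed between the groups. The share of all probes well above background was 38.1% ± 2.39 (SD, n = 4) in furan livers and 34.3% ± 1.77 (n = 3) in corn oil livers at 3 weeks (exact permutation p = 0.0571, two-sided), and on slide 1 the groups overlapped, with 35.9% and 38.0% on furan arrays and 36.7% and 35.8% on corn oil arrays. At 18 h it was 53.7% ± 1.48 in furan livers and 47.3% ± 3.18 in corn oil livers (n = 4 each; exact permutation p = 0.0286, the smallest possible), and furan arrays were higher on both slides. Its part in the results on these markers was not tested.

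Afp was higher in furan livers at both times. At 3 weeks its values were 0.99, 1.27, 1.40 and 1.23 in furan livers 41 to 44, against -0.12, -0.13 and -0.25 in corn oil livers 2, 4 and 6. All furan livers lay far above all corn oil livers, and the spread within each group was small beside the gap. The difference was 1.39 (SE 0.14; limma adjusted p = 0.00832), or 2.62-fold in the main processing. It was 1.27 on slide 1 and 1.49 on slide 2, and lay between 1.09 and 2.00 over all alternatives. The array of corn oil liver 6 was not above background.

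At 18 h Afp stood at 0.30, -0.24, 0.47 and 0.05 in furan livers 41 to 44, against -0.63, -0.75, -0.71 and -0.75 in corn oil livers 2, 3, 4 and 6. The groups again did not overlap, although the furan livers were more scattered (SD 0.31 against 0.06). The difference was 0.85 (SE 0.13; limma adjusted p = 0.000501), or 1.81-fold, with 0.76 on slide 1 and 0.95 on slide 2. The Afp signal was 4.19 to 6.87 times the local background on furan arrays and 2.51 to 2.95 times on corn oil arrays at 3 weeks, and 4.67 to 7.03 times on furan arrays and 2.39 to 3.09 times on corn oil arrays at 18 h. The Afp probe was printed 10 times on each array, and the SD over its usable spots within an array was 0.05 to 0.22, with a median of 0.10, which is well below the furan difference.

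Msln passed the filter on dim probes only through the furan groups, in which it was high, and its corn oil values were mostly near background. At 3 weeks its values were 1.77, 1.54, 1.35 and 1.56 in furan livers 41 to 44, against -0.16, 0.66 and 0.21 in corn oil livers 2, 4 and 6. The groups did not overlap, and corn oil liver 4, the highest control, carried the single corn oil array above background. The difference in log2 ratio was 1.32 (SE 0.18; limma adjusted p = 0.0357), with 1.29 on slide 1 and 1.54 on slide 2, and no fold is given against arrays near background.

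At 18 h Msln values were 0.38, 0.26, -0.21 and -0.01 in furan livers 41 to 44, against -0.42, -0.24, -0.10 and -0.31 in corn oil livers 2, 3, 4 and 6. Furan liver 43 lay below corn oil liver 4, so the groups overlapped. The difference of 0.37 (SE 0.09) passed the test all the same (limma adjusted p = 0.00811), with 0.49 on slide 1 and 0.25 on slide 2, where alone it did not pass (adjusted p = 0.189). The Msln signal was at most 5.23 times the local background on any array.

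Prom1 and Anxa2, the brightest markers, passed for furan at 18 h and not at 3 weeks. Prom1 read 0.63, 1.10, 1.00 and 1.18 in furan livers 41 to 44 at 3 weeks, against 0.12, 0.48 and 0.27 in corn oil livers 2, 4 and 6. No furan value fell among the corn oil values, but the difference of 0.69 (SE 0.17, 95% interval 0.32 to 1.06) did not pass the test over all probes (limma adjusted p = 0.145). At 18 h its values were -0.13, 0.28, -0.01 and 0.37 in furan livers 41 to 44, against -0.39, -0.49, -0.41 and -0.80 in corn oil livers 2, 3, 4 and 6. The groups did not overlap, and the difference of 0.65 (SE 0.13) passed (limma adjusted p = 0.00269), with 0.52 on slide 1 and 0.78 on slide 2. The other Prom1 probe, above background on no array, differed by 0.15 at 3 weeks and 0.01 at 18 h, so it gives no check of the brighter probe.

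Anxa2 read 1.02, 1.25, 1.29 and 1.28 in furan livers 41 to 44 at 3 weeks, against 0.39, 0.69 and 0.79 in corn oil livers 2, 4 and 6. Every furan liver was higher, and the difference was 0.59 (SE 0.15, 95% interval 0.27 to 0.91; limma adjusted p = 0.148), which did not pass. At 18 h the values were -0.11, -0.30, -0.05 and -0.03 in furan livers 41 to 44, against -0.39, -0.70, -0.54 and -0.69 in corn oil livers 2, 3, 4 and 6. The groups did not overlap there either, and the difference of 0.46 (SE 0.10; limma adjusted p = 0.00283) passed, with 0.41 on slide 1 and 0.50 on slide 2. On slide 1 alone the call was lost (adjusted p = 0.0602).

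Spp1 was the only marker of the 7 tested that fell with furan at 18 h. Its values were -0.14, 0.13, -0.13 and 0.20 in furan livers 41 to 44, against 0.58, 1.00, 0.78 and 0.33 in corn oil livers 2, 3, 4 and 6. All furan livers were lower than all corn oil livers, and the difference was -0.66 (SE 0.13; limma adjusted p = 0.00224). The probe passed the filter only through this corn oil group, in which it was high. Within slides it was -0.89 on slide 1 and -0.42 on slide 2, where alone it did not pass (adjusted p = 0.0904). The Spp1 signal was no more than 3.61 times the local background. At 3 weeks it was above background on no furan or corn oil array, and no fold is given.

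Krt7 and Cd24a, the other measured markers of duct and progenitor cells, passed neither furan comparison. Krt7 read 0.56, 0.22, 0.16 and 0.61 in furan livers 41 to 44 at 3 weeks, against 1.03, 0.85 and 0.54 in corn oil livers 2, 4 and 6. The groups overlapped at the edge, and the difference was -0.42 (SE 0.17, 95% interval -0.80 to -0.03; limma adjusted p = 0.324). At 18 h Krt7 differed by -0.04 (95% interval -0.32 to 0.24). Cd24a differed by -0.13 at 3 weeks (95% interval -0.57 to 0.31) and by -0.07 at 18 h (95% interval -0.29 to 0.16), with overlapping groups both times. These intervals do not show that Krt7 and Cd24a were unaffected.

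Sox9, Krt19 and Epcam were too dim for the main test, and gave values near background. The Sox9 probe, printed 10 times, read 0.69, 0.37, 0.14 and 0.21 in furan livers 41 to 44 at 18 h, against 0.08, -0.01, -0.03 and -0.01 in corn oil livers 2, 3, 4 and 6. The furan values were all higher (exact permutation p = 0.0286, two-sided, the smallest possible), but only furan liver 41 was above background, and with all 55660 probes in the fit the difference of 0.35 did not pass (limma adjusted p = 0.0551). At 3 weeks no array measured Sox9. The signals of Epcam and Krt19 lay between 1.71 and 2.55 times the local background, with exact permutation p of 0.286 to 0.543 for the furan differences at both times. Without the filter on dim probes, 0 of these 4 dim probes were called for furan, where 21% of all probes were called at 18 h and 0.0503% at 3 weeks.

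**Figure D2:**
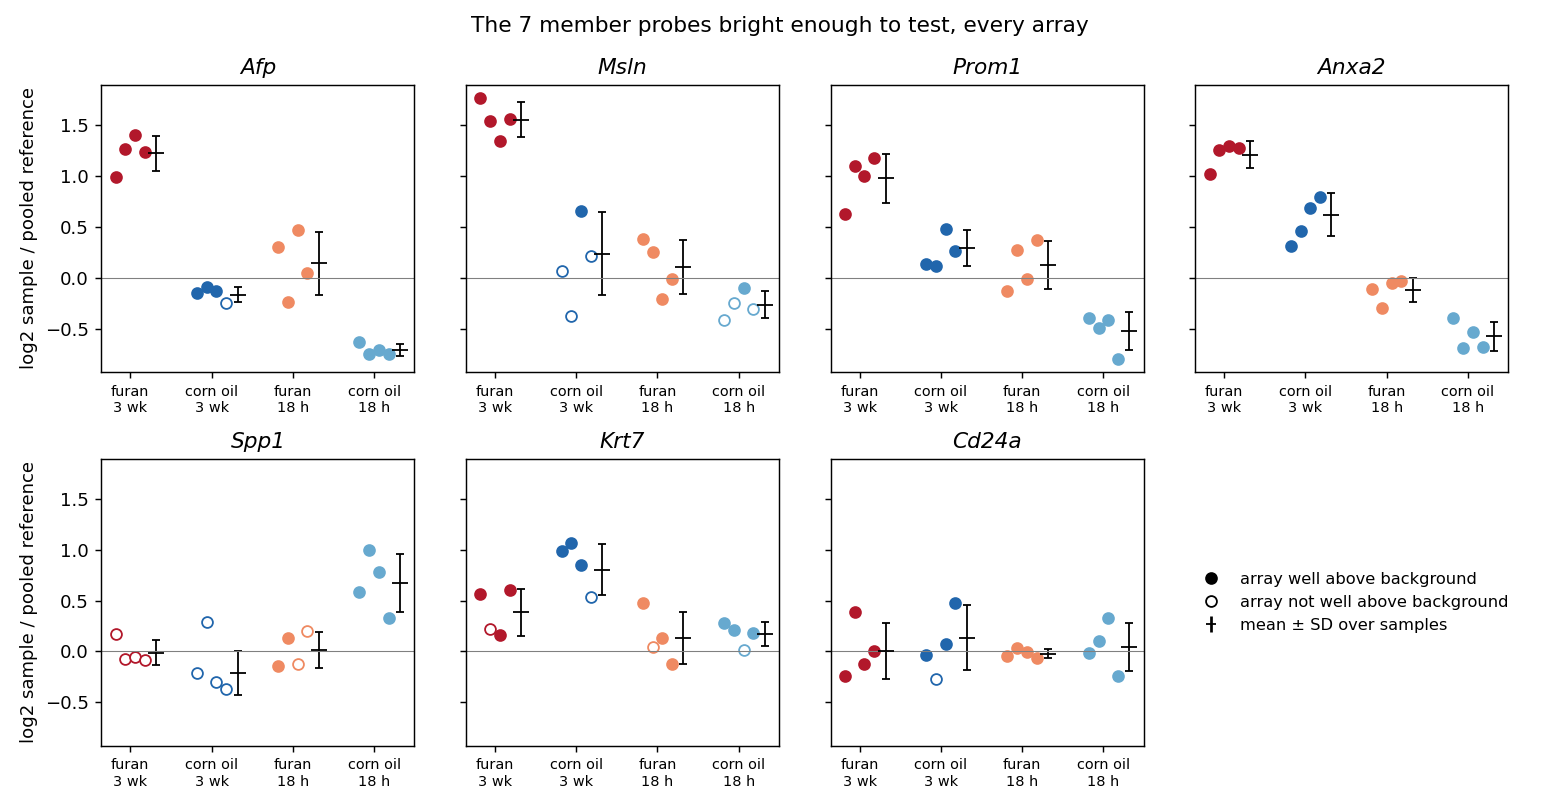
Log2 ratio of sample over pooled reference for the 7 testable probes on every array, with the mean and SD over samples beside the points, in furan and corn oil livers at 3 weeks and 18 h. Filled points were well above background and open points were not. Furan points lie above all corn oil points for Afp, Prom1 and Anxa2 at both times and for Msln at 3 weeks, and below them for Spp1 at 18 h.

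Counted over the 7 testable probes, 2 rose with furan at 3 weeks (Afp and Msln), where 0.118% of all 29675 tested probes were called, 0.0876% higher and 0.0303% lower. At 18 h 5 were called, 4 higher (Afp, Prom1, Msln and Anxa2) and 1 lower (Spp1), where 47.3% of all probes were called, 20.4% higher and 26.8% lower. Msln and Spp1 became testable only through the group in which they were high, so neither count is read as a property of the markers. At 3 weeks the groups did not overlap for 4 markers, all higher with furan, where 13.4% of all probes did not overlap. At 18 h they did not overlap for 4 as well, 3 higher and 1 lower, where 39.2% of all probes did not. The median of all tested probes differed by 0.00 at 3 weeks and -0.05 at 18 h.

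The call of Afp at 3 weeks was lost without corn oil liver 2 (adjusted p = 0.0759), corn oil liver 6 (0.109) or furan liver 44 (0.0514), while its difference stayed between 1.31 and 1.47. The call of Msln at 3 weeks was lost without corn oil liver 2 or 6 or any of the furan livers 41, 42, 43 and 44, where its adjusted p reached 0.162 and its difference lay between 1.12 and 1.50. Slide 1 alone called neither (adjusted p = 0.63 for Afp and 0.66 for Msln), and slide 2 alone called both (0.0191 and 0.0234).

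The furan change itself was then compared between the times in formalin. For Msln the fitted change at 3 weeks minus that at 18 h was 0.95 (SE 0.20; limma adjusted p = 0.00615). Only 1 of 4 corn oil arrays was above background at each time, so this is no measured size. Spp1 was also called, but it was not measured above background in either group at 3 weeks, so no size is given. For Afp it was 0.54 (SE 0.19, 95% interval 0.13 to 0.94; limma adjusted p = 0.0766) and did not pass. For Prom1 it was 0.04 (95% interval -0.43 to 0.50) and for Anxa2 0.13 (95% interval -0.21 to 0.47). These 2 calls were positive, and neither is read as a property of the panel, where 12.8% of all probes were called, 7.82% with a positive and 4.94% with a negative difference.

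**Figure D3:**
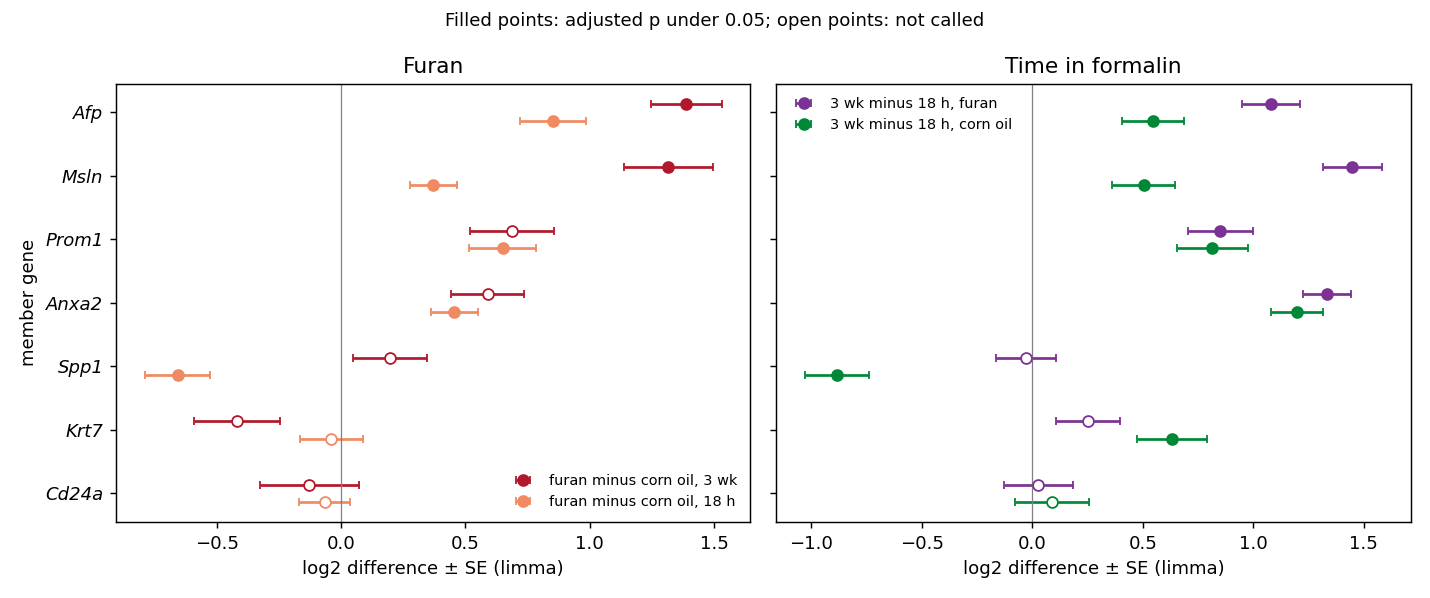
Log2 differences with limma SE for the 7 testable probes: left, furan minus corn oil at 3 weeks and at 18 h; right, 3 weeks minus 18 h in furan and in corn oil livers. Filled points passed an adjusted p of 0.05 and open points did not. Afp and Msln passed for furan at both times, Prom1 and Anxa2 passed at 18 h, and Anxa2 passed for time in formalin with differences of 1.33 and 1.20.

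Afp, Msln, Prom1 and Anxa2 also had higher log2 ratios at 3 weeks than at 18 h in livers of both treatments, in comparisons that share samples with those of furan. Between 3 weeks and 18 h the furan livers differed by 1.33 (SE 0.11) for Anxa2, 1.45 (SE 0.13) for Msln, 1.08 (SE 0.13) for Afp and 0.85 (SE 0.15) for Prom1. All 4 passed, with limma adjusted p of at most 9.29e-05, and none of their groups overlapped. The remaining 3 did not pass, with 0.25 for Krt7, 0.03 for Cd24a and -0.03 for Spp1. The 4 calls compare with 67.2% of all probes called, 35.1% higher and 32% lower, and with 57.7% of all probes whose groups did not overlap.

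In corn oil livers the differences between 3 weeks and 18 h were 1.20 (SE 0.12) for Anxa2, 0.81 (SE 0.16) for Prom1, 0.63 (SE 0.16) for Krt7, 0.55 (SE 0.14) for Afp and 0.50 (SE 0.14) for Msln. Spp1 was lower at 3 weeks, at least 1.61-fold, being above background on 0 of 4 arrays at 3 weeks and on 4 of 4 at 18 h. Its probe passed the filter on dim probes only through this 18 h group, in which it was high. Array-wide, 32.3% to 36.7% of probes were above background on the corn oil arrays at 3 weeks, against 44.3% to 50.1% at 18 h. These 6 markers passed and Cd24a (0.09) did not, where 59.4% of all probes were called, 28.6% higher and 30.8% lower. The count is not read as a property of the markers. The groups did not overlap for Anxa2, Prom1, Krt7, Afp and Spp1, as for 58.7% of all probes. Msln was above background on 1 of 4 corn oil arrays at each time, so its 0.50 there is no measured size. Raw Afp signals were close at both times, at 5.66 times the local background at 3 weeks and 5.83 times at 18 h in furan livers, and 2.79 times at 3 weeks and 2.71 times at 18 h in corn oil livers. Raw Prom1 signals were lower at 3 weeks, at 16.7 times against 25.6 times at 18 h in furan livers. In corn oil livers they were 7.24 times at 3 weeks and 9.12 times at 18 h. Those of Anxa2 and Msln were higher at 3 weeks in both treatments. The log2 ratios are relative to the other probes of an array. With each array centred on its median in place of loess, the median of all probes moved to -0.29 in furan and -0.24 in corn oil livers. In corn oil livers Afp (0.18) and Prom1 (0.19) then did not pass, nor did Prom1 in furan livers (0.06). With Agilent's own log ratios those medians were -0.12 and -0.16. Without the filter, 1 of the 4 dim probes, that of Sox9, was called between the times in furan livers, where 38.6% of probes were called. It was above background on 0 of 4 arrays at 3 weeks and 1 of 4 at 18 h, and no size is given.

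Afp, Msln, Prom1 and Anxa2 had their highest group mean in furan livers at 3 weeks and their lowest in corn oil livers at 18 h. For Afp the means were 1.22 ± 0.17 (SD, n = 4) in furan and -0.17 ± 0.07 (n = 3) in corn oil livers at 3 weeks, and 0.14 ± 0.31 in furan and -0.71 ± 0.06 in corn oil livers at 18 h (n = 4 each). The middle groups, corn oil at 3 weeks and furan at 18 h, overlapped. For Msln the means were 1.55 ± 0.17 in furan and 0.24 ± 0.41 in corn oil livers at 3 weeks, and 0.10 ± 0.26 in furan and -0.27 ± 0.13 in corn oil livers at 18 h, and its 3 lower groups overlapped. Prom1 averaged 0.98 ± 0.24 in furan and 0.29 ± 0.18 in corn oil livers at 3 weeks, and 0.13 ± 0.24 in furan and -0.52 ± 0.19 in corn oil livers at 18 h, again with overlapping middle groups. For Anxa2 the means were 1.21 ± 0.13 in furan and 0.62 ± 0.21 in corn oil livers at 3 weeks, and -0.12 ± 0.12 in furan and -0.58 ± 0.14 in corn oil livers at 18 h, and none of its 4 groups overlapped with its neighbour. Krt7 averaged 0.39 ± 0.23 in furan and 0.80 ± 0.25 in corn oil livers at 3 weeks, and 0.13 ± 0.25 in furan and 0.17 ± 0.11 in corn oil livers at 18 h. Spp1 was highest in corn oil livers at 18 h, at 0.67 ± 0.28, and the 4 group means of Cd24a lay between -0.02 and 0.13.

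Over the 15 samples and 13044 named genes, the genes whose pattern lay nearest to that of Afp were Tuba1c, an alpha-tubulin, Hsp90aa1, the inducible cytosolic chaperone, and Psat1, an enzyme of serine synthesis. Their root mean square differences from Afp were 0.24, 0.26 and 0.27, beside an SD of 0.77 for Afp itself. For Spp1 they were Ccnd2, a D-type cyclin, Pramel37 and Ube2h, a ubiquitin-conjugating enzyme, at 0.15, 0.16 and 0.17, beside an SD of 0.39. Sox9 had no tested probe to compare.

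The other genes of these pathways were taken as lists and are given by counts over the brightest tested probe of each gene. Among genes that control Afp in the mouse, Zbtb20 and Zfhx3, which repress it, rose with furan at 18 h by 1.29 (SE 0.08) and 0.67 (SE 0.09). Nr5a2, an activator, rose by 0.31, but its other tested probe differed by -0.26 and was called lower (limma adjusted p = 0.0485). In all, 3 of 4 regulators were higher at 18 h, with Nr5a2 counted by its brightest probe alone, and 0 at 3 weeks, where Zbtb20 differed by -0.03. The part of these regulators in the Afp result was not tested. At 18 h 51.2% of all named genes were called and at 3 weeks 0.146%. Alb, the albumin gene beside Afp in the same family, fell by 0.72 (SE 0.10) at 18 h. Gc, the vitamin D binding protein, fell by 0.44, although its other probe differed by 0.26 and was called higher (limma adjusted p = 0.0205). None of the 3 family genes was called at 3 weeks.

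Of 9 oncofetal genes, Hmga2 alone had a tested probe, and it was called in neither furan comparison. Dlk1, Gpc3, Igf2, Igf2bp1, Igf2bp2, Igf2bp3 and Lin28b had probes that were not bright enough, and H19 was not matched to a probe.

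Of the 15 measured cholangiocyte genes, 3 were higher and 2 lower with furan at 18 h, where 51.2% of all named genes were called, and 0 were called at 3 weeks, where 0.146% were. Wfdc2, a secreted protease inhibitor, fell by 0.73 (SE 0.12), while Slc10a2, the bile acid transporter of cholangiocytes, rose by 0.75 (SE 0.12). Cftr, Sctr, Cldn4, Elf3, Ggt1, Mmp7 and Tspan8 were not bright enough. The mean of the list over its genes ranged from -0.16 to -0.08 in furan and -0.21 to -0.16 in corn oil livers at 3 weeks, and from -0.49 to -0.09 in furan and -0.24 to -0.22 in corn oil livers at 18 h. Its median difference was 0.04 at 3 weeks and 0.05 at 18 h, beside 0.03 and 0.02 over all named genes.

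Of 14 genes of progenitor cells and of the Notch and YAP pathways, 7 were higher and 2 lower with furan at 18 h and 0 were called at 3 weeks, again beside 51.2% and 0.146% of all named genes. Some of those higher passed the filter on dim probes only through the furan group at 18 h, in which they were high. The count is therefore not read as a property of the list. Tnfrsf12a, the receptor of the cytokine TWEAK, rose by 0.86 (SE 0.13), Ccn1, a YAP target, by 0.53 (SE 0.10), and Notch2, a receptor, fell by 0.61 (SE 0.12). Of 9 annexin and S100 genes, 7 were higher and 1 lower at 18 h, where 51.2% of all named genes were called. Among those higher were S100a10, the partner of annexin A2 (0.76, SE 0.10), Anxa7 (0.73, SE 0.10) and Anxa1 (0.66, SE 0.11). None of the 9 was called at 3 weeks. Krt18, a hepatocyte keratin, was 1 of 4 simple keratins called, higher by 0.74 (SE 0.08) at 18 h. Among 8 receptors of osteopontin, Itgav and Itgb1 fell by 0.62 (SE 0.11) and 0.45 (SE 0.09), and Itgb5 rose by 0.46 (SE 0.09) at 18 h, with 0 called at 3 weeks. The keratin and receptor calls stand beside 51.2% of all named genes called at 18 h and 0.146% at 3 weeks. They are not read as a property of these lists.

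The mesothelium was barely measured: 7 of the 8 matched marker genes (Bnc1, Gpm6a, Lrrn4, Rspo1, Upk1b, Upk3b and Wt1) had no probe bright enough, and Nkain4 rose by 0.32 (SE 0.12) at 18 h and differed by -0.11 at 3 weeks. Macrophages also make Spp1. Of 8 measured macrophage markers, 2 were higher at 3 weeks, where 0.146% of all named genes were called, namely Cd63, a tetraspanin of lysosomes, by 1.10 (SE 0.17), and Mmp12, a macrophage elastase, for which 4 of 4 furan arrays and 0 of 4 corn oil arrays were above background and no fold is given. At 18 h 4 were higher and 1 lower, where 51.2% of all named genes were called, and among those higher were Mmp12 (1.10, SE 0.13), Cd63 (0.62, SE 0.10) and Cd9 (0.51, SE 0.09). The list mean ranged from 0.36 to 0.75 in furan and -0.04 to 0.41 in corn oil livers at 3 weeks, and from -0.39 to -0.08 in furan and -0.70 to -0.39 in corn oil livers at 18 h. Gpnmb and Itgax were not bright enough. Their part in the results on the panel was not tested.

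Hepatocyte genes, which define the labelled tissue, were above background on every array for the genes named here, and 7 of 10 fell with furan at 18 h while 1 rose. None of the 10 was called at 3 weeks. Over all named genes 51.2% were called at 18 h and 0.146% at 3 weeks, which also holds beside the stellate counts. Hpd fell by 1.62 (SE 0.12), Cps1 by 1.32 (SE 0.09) and Ttr by 0.90 (SE 0.08). The list mean ranged from -1.14 to -0.70 in furan and -0.67 to -0.35 in corn oil livers at 3 weeks, and from -0.23 to -0.05 in furan and 0.47 to 0.63 in corn oil livers at 18 h. Stellate and fibroblast genes gave 2 higher and 2 lower of 7 at 18 h, with Pdgfrb and Col1a1 higher by 0.62 (SE 0.13) and 0.60 (SE 0.12) and Lrat lower by 0.36 (SE 0.10), and 0 called at 3 weeks. The part of these cell types in the results on the panel was not tested.

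**Figure D4:**
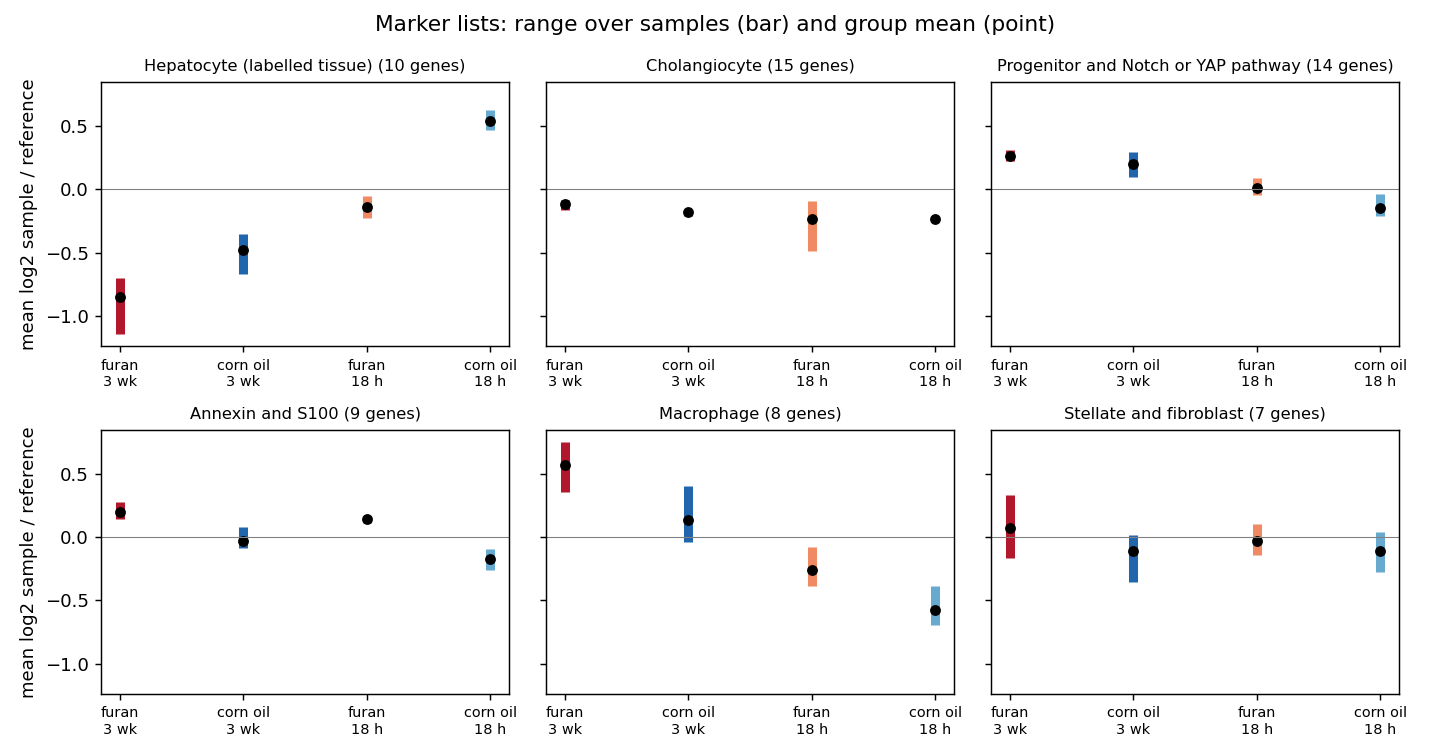
Mean log2 ratio over the measured genes of 6 marker lists, as the range over samples (bar) and the group mean (point), in furan and corn oil livers at 3 weeks and 18 h. The hepatocyte mean is lower in furan than in corn oil livers at both times, the macrophage mean is higher in the furan groups, and the cholangiocyte mean stays between -0.49 and -0.08 in all samples.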

How the data were processed

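Per the file headers, spots were quantified by the authors in Agilent Feature Extraction 11.0.1.1 against build mm9. The deposited scanner files hold median spot and background intensity, flags, and a log10 ratio of sample over reference that Agilent's software had background-subtracted and dye-normalized. The authors' deposited value table holds log2 ratios, used as an alternative. Its columns had medians of -0.00919 to 0.0247 and correlated at 0.856 to 0.978 with the scanner ratios over probes, with slopes of 0.644 to 0.799, so direction and log2 scale were settled and its normalization method stays unknown.

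From the scanner files, median intensities were corrected by normexp (offset 50), and loess within arrays normalized the ratios. Spots marked as non-uniform or outliers, 187 to 308 of 62976 per array, were left out, and replicate spots of each probe averaged. Testing required that a share of 0.5 or more of a probe's spots exceed background well in Cy5, on 3 or more arrays of any group, which kept 29675 of 55681 probes. Limma 3.58.1 in R 4.3.3 (lmFit, eBayes, slide as a term) gave two-sided p-values, and the Benjamini-Hochberg adjustment ran across the whole set of tested probes (threshold 0.05). Furan was tested among the samples of its own time, and differences between the times among all 15 samples. "At least" folds set the bright group's mean against the dim group's mean, each dim array taken at the higher of its own signal and the lowest signal among probes well above background. They are per channel and open to dye bias, since no dyes were swapped. Dim probes were compared by exact permutation of samples. The nearest patterns were the smallest root mean square differences between centred log2 ratios, and at most 3 called genes with the smallest p were named per comparison from each of 12 other lists, except 1 gene that is not reported here. Each gene with several tested probes was represented by the brightest. Probe sequences are not used here. Fits were checked on simulated data with 200 of 29675 probes changed. There the furan fit recovered 1% of 1.5-fold and 46% of 2-fold changes at 3 weeks, and 54% and 89% at 18 h. Lists without calls at 3 weeks are therefore not shown to be unchanged. At 18 h 14022 real probes were called, so the simulated rates need not hold there. False calls made up 4.08% of simulated calls for furan at 3 weeks and 3.38% at 18 h. They made up 7.81% for the difference between times, 9.87% between times in furan livers and 6.77% in corn oil livers. Python 3.11.15 with numpy 2.4.6 and matplotlib 3.10.9 made the plots.

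The members and lists were chosen with earlier results of these data known. Replicate numbers are shared between the times, and the labels do not say whether same-numbered samples come from the same liver. Same-numbered samples deviated together at r of 0.0189 to 0.182, which does not settle this. The numbers were not taken as pairs in the main fits. Alternatives covered background, normalization, filters, probes per gene, slide, variance model, arrays 2.1 and 2.2, pairing and left-out replicates.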

Additional observations from a re-analysis of the deposited data

Results flagged for a closer look

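Spp1 in furan liver 41 at 3 weeks read 0.17, apart from the other 3 furan livers of that time at -0.08 to -0.06, and none of the 4 was above background. Anxa2 in the same liver read 1.02, below the other 3 at 1.25 to 1.29, and still above every corn oil liver of that time. These are 2 of 33 combinations of probe and group examined for a sample apart from the rest, and chance marks about 1 in 20. For Msln the fitted furan change at 3 weeks exceeded that at 18 h by 0.95 (limma adjusted p = 0.00615). This is no measured size, since only 1 of 4 corn oil arrays was above background at each time. For Spp1 the fitted difference was 0.86, which is no measured size, since no array at 3 weeks was above background.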

How the results depend on the processing

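The count of called markers at 3 weeks, 2, became 4 without background subtraction, with each array centred on its median and with all 15 samples in the fit, and 0 with Agilent's log ratios and on slide 1 alone. Leaving out each sample gave 0 to 3. With Agilent's log ratios the adjusted p was 0.129 for Afp and 0.292 for Msln, although their differences were larger (2.00 and 2.18). Prom1 and Anxa2 were called at 3 weeks under those 3 settings that gave 4, Anxa2 also with the authors' deposited values (adjusted p = 0.0488, a count of 3) and Prom1 also without corn oil liver 4 (0.0433). The larger of Afp and Msln at 3 weeks also turned, with Msln larger on each slide alone, with Agilent's log ratios and with arrays 2.1 and 2.2 separate. At 18 h the count of 5 became 3 on slide 2 alone, and leaving out each sample gave 5 throughout. The count for the difference between times, 2, became 1 with Agilent's log ratios, where Msln had an adjusted p of 0.193, and 2 to 3 without single samples. The cause was not tested. With the replicate number as a block (replicate block) the counts of called markers stayed at 2 for the difference between times, 4 in furan livers and 6 in corn oil livers, and the estimated correlation within a number was 0.0269. Samples 6 and 44 deviated more with another number than with their own.

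The signs that turned belonged to differences between -0.13 and 0.20 that had not passed. With median centring 1 of them was called with its sign turned, that of Cd24a between times in furan livers. Cd24a at 18 h became 0.10 with Agilent's log ratios, 0.17 with median centring, 0.013 with the authors' deposited values and 0.10 on slide 2 alone. Its furan difference at 3 weeks became 0.053 on slide 1 alone, and the difference between times became 0.0078 without background subtraction and 0.0095 with arrays 2.1 and 2.2 separate. Between times in formalin Cd24a became -0.20 (Agilent), -0.57 (median centring, adjusted p = 0.00133) and -0.092 (authors' deposited values) in furan livers, and -0.35 (median centring) and -0.0050 (authors' deposited values) in corn oil livers. Prom1's difference between times became -0.010 (Agilent), -0.14 (median centring) and -0.00055 (authors' deposited values). Krt7 at 18 h became 0.15 on slide 1 alone. Spp1 became -0.031 at 3 weeks on slide 2 alone and 0.0082 between times in furan livers with median centring. Without single samples the ranges were -0.14 to 0.011 (18 h), -0.30 to 0.088 (3 weeks), -0.21 to 0.16 (difference), -0.10 to 0.13 (furan, times) and -0.13 to 0.23 (corn oil, times) for Cd24a, -0.055 to 0.16 for Prom1 (difference), -0.16 to 0.050 for Krt7 (18 h) and -0.11 to 0.069 for Spp1 (furan, times).

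Calls over all probes at 3 weeks moved between 0 (Agilent, 3563 probes at an unadjusted p under 0.05; slide 1 alone, 2192) and 2317 (median centring) around 35, through 450 without background subtraction, 312 with the authors' deposited values, 322 with arrays 2.1 and 2.2 separate, 1299 with all 15 samples, 266 on slide 2 alone, 72 without a slide term, 20 with a trended prior and 0 to 774 without single samples. At 18 h slides 1 and 2 alone gave 8151 and 7042 calls against 14022, and the difference between times gave 2222 without the filter and 2286 with Agilent's log ratios against 3787. The share of calls that were higher was 43.2% at 18 h and 78.6% with median centring, 55% with the authors' deposited values. It was 74.3% at 3 weeks, 45.3% without background subtraction, 89.8% with median centring, 53.8% with the authors' deposited values, 37% with arrays 2.1 and 2.2 separate, 10.9% on slide 2 alone and 13.2% without corn oil liver 4, and 61.3% for the difference, 27.5% with median centring and 44% with the authors' deposited values. Between times it was 52.3% in furan livers and 48.1% in corn oil livers, and 23.3% and 24.5% in the same order with median centring. Dim signal limits Sox9, Krt19, Epcam, Spp1 and Msln most.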
